A study of Mus musculus with 8 samples.

Results

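The first steps of pre-T cell receptor (pre-TCR) signalling were followed through 10 genes: the CD3 chains Cd3d, Cd3e, Cd3g and Cd247, the kinases Zap70 and Fyn, the adaptors Lat and Lcp2, and the surface receptors Cd5 and Cd2. Every probe set that the platform annotation gives to these symbols was taken, whatever its values, which made 17 of 45101 probe sets and 10 of 18193 genes. The cells were mouse DN3 thymocytes, early T cell precursors, in 4 groups of 2 arrays. Cells of wild-type mice (WT) and of Ikaros-deficient mice (labelled IkL/L) were each exposed for 16 h to the gamma-secretase inhibitor MRK-003 (GSI, 5 mM as labelled) or to its vehicle DMSO, giving WT DMSO and WT GSI on one side and IkL/L DMSO and IkL/L GSI on the other. All groups came from lineage-negative thymocytes kept on OP9 DL1, a stromal line that presents the Notch ligand Delta-like 1, and the sort for DN3 cells kept those with CD25 but without CD44 or lineage markers. Gamma-secretase cuts Notch receptors to release their active part, and Ikaros is the transcription factor encoded by Ikzf1. The labels give no age of the mice and do not say that arrays came from separate animals or cultures, so a p-value covers just the spread from array to array, which may be technical.

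The pre-TCR forms in DN3 cells when a rearranged TCR beta chain pairs with the pre-TCR alpha chain encoded by Ptcra and assembles with CD3 delta, gamma and epsilon and with a CD3 zeta dimer, the product of Cd247. The chains' cytoplasmic tyrosine motifs are phosphorylated by the Src family kinases LCK and FYN, ZAP70 then docks on them, and ZAP70 phosphorylates the adaptors LAT and SLP-76, the product of Lcp2. These signals carry cells through beta-selection, the checkpoint at which DN3 cells also depend on Notch. CD5 dampens receptor signals, and its surface level on thymocytes is known to rise with their strength. CD2 is an adhesion and costimulatory receptor that binds CD48 in the mouse.

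The RefSeq promoter windows of the members were searched for TGGGAA on both strands, because RBPJ, the DNA-binding partner of Notch, and Ikaros both recognise sites that contain these letters. Each window (build GRCm38.p6) ran from 250 bases before to 50 bases after a gene's start. Of the 10 genes, 9 had a window in the table, all but Cd2, and Zap70 had 3 windows. TGGGAA occurred in 6 of 11 member windows, at 6 of 9 genes (Cd3e, Cd3g, Zap70, Lat, Lcp2 and Cd5), beside 25.6% of all 32851 windows. A match is a description of these letters only, with no measurement of binding in these data. The windows of Cd5 (chr19:10738925-10739224, minus strand) and of the first start of Zap70 (chr1:36761548-36761847, plus strand), which both fell under GSI, and of Cd247 (chr1:165788431-165788730, plus strand), which rose, are given as the promoters of the members whose levels changed. Capitals mark TGGGAA or its reverse complement. The Cd247 window has neither, nor do the other windows of Zap70, which are not printed.
Cd5: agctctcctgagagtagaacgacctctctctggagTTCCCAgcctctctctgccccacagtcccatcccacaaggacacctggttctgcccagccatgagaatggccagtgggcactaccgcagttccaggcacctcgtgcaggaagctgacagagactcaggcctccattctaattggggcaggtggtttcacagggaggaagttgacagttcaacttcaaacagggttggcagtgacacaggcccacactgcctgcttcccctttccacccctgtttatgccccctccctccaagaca
Zap70: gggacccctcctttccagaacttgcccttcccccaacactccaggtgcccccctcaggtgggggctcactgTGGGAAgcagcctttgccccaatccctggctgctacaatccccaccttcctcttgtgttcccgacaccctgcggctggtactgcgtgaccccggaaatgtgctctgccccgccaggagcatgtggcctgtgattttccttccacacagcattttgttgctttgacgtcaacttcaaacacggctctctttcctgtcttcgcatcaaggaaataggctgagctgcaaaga
Cd247: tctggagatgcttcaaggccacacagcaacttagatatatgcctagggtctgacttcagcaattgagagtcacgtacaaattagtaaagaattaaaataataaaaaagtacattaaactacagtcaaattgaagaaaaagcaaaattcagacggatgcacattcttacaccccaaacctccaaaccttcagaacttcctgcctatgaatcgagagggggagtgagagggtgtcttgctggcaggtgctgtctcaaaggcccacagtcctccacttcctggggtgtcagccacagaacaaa
The E-box letters CANNTG, read on both strands, as bound by the E proteins that act with Notch in DN3 cells, were in 11 of 11 member windows and in 72.3% of all windows. The RUNX letters TGTGGT were in 2 of 11 member windows and in 16.8% of all windows.

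Values are the authors' deposited log2 values, on which array medians over all probe sets lay between 5.25 and 5.33, and a gene with several probe sets is represented by the brightest. The targeted gene, Ikzf1, had a log2 difference of -0.90 ± 0.14 (moderated SE) between IkL/L and WT in DMSO arrays (limma adjusted p = 0.022) and of -0.43 ± 0.14 in GSI arrays (adjusted p = 0.30). Dtx1, a direct Notch target, fell by 4.38 ± 0.14 on the log2 scale under GSI averaged over both genotypes. The DN3 label was checked against 10 stage markers, of which 9 were measured and all 9 lay above the array median on both arrays of every group. Some transcripts on the marker lists of other cells moved with the groups. Whether they came from other cells or from the DN3 cells was not tested. The mean level of 16 myeloid and dendritic markers was between 5.01 and 5.47 under DMSO, between 5.42 and 5.67 in WT GSI and between 6.55 and 6.59 in IkL/L GSI. Of these 16 markers, 8 rose in the averaged comparison, and 8 did not pass, among them Itgam, Csf1r and Mpo. The mean of 9 measured B cell markers was between 5.45 and 5.83 under DMSO and between 6.02 and 6.34 under GSI. In the averaged comparison Vpreb1 and Cd79b rose, and the other 7, among them Cd79a, Pax5 and Cd22, did not pass. Of 12 natural killer and innate lymphoid genes measured, 3 lay above the array median on both arrays of every group: Gzma (12.53 to 13.18), Nkg7 (6.24 to 9.13) and Id2 (6.69 to 9.11). The receptor genes Klrk1, Klrd1 and Ncr1 of that list lay between 2.96 and 4.60. Nkg7 rose under GSI (1.11 ± 0.22 on average, adjusted p = 0.0077) and differed by -1.87 ± 0.31 between IkL/L DMSO and WT DMSO (adjusted p = 0.025). The mean of 20 stromal markers, which ran from 6.17 to 8.03, was higher on replicate 1 than on replicate 2 of every group. The GAPDH 3' minus 5' probe difference, a sign of RNA or cRNA length, was between 1.71 and 2.47 under DMSO and between 2.20 and 3.09 under GSI. The part of these shifts in the results below was not tested except by the fits with the stromal mean or the GAPDH difference as a covariate. The shifts of the other marker lists had no such fit. Within each genotype the GAPDH difference was higher on both GSI arrays than on both DMSO arrays. The fit with it as a covariate therefore cannot fully tell RNA length and GSI apart. Less RNA per cell and fewer cells of a type cannot be told apart in such bulk samples.

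GSI moved the members in both directions, and the CD3 chains did not move together with the kinase and the surface receptors. Averaged over the genotypes, 4 of the 10 members passed the test (limma on all genes, Benjamini-Hochberg adjusted p below 0.05): Cd2, Cd5 and Zap70 fell and Cd247 rose. Across all genes 23.3% were called in this comparison, 10.8% higher and 12.5% lower. Beside these, the 1 member that rose lay near the background and the 3 that fell made a larger share, in a list of only 10 genes. All 10 members, however, lay among the genes above the median level. In the fit of those genes alone 44.8% were called, and with 2 members higher and 3 lower the members lay near that share. The median log2 difference of the members was -0.10, beside -0.0022 over all genes. Cd3d, Cd3e, Cd3g, Fyn, Lat and Lcp2 did not pass, and the unadjusted p was below 0.05 for 6 members, Cd3e and Lat besides the 4 called. Over all genes it was below 0.05 for 6082 of 18193.

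**Figure D1:**
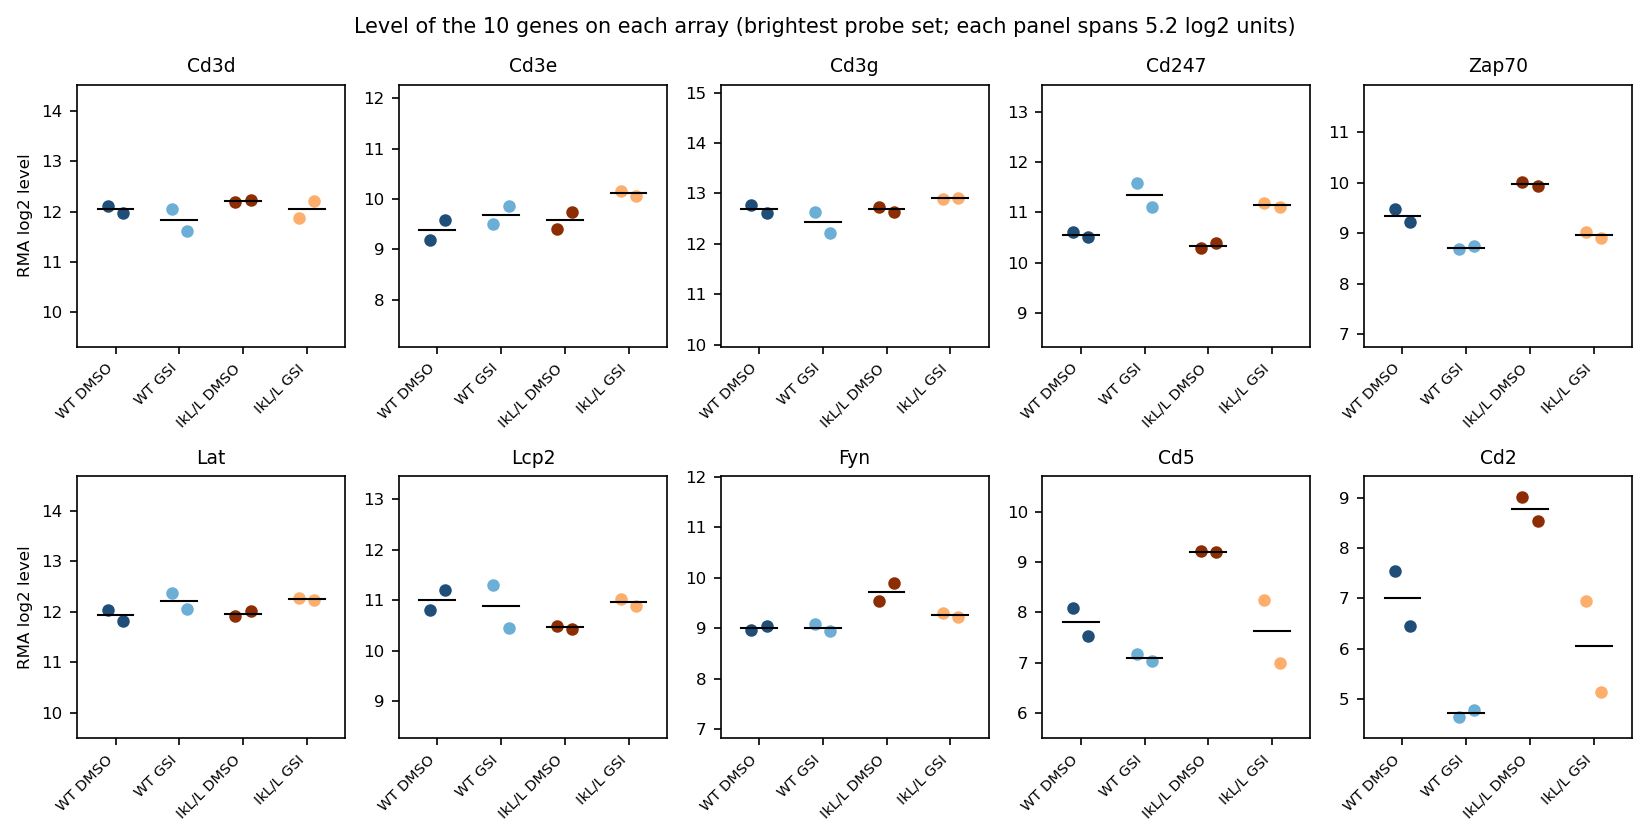
Log2 level of the 10 members (brightest probe set) on each of the 8 arrays, as points by group, with the group mean as a bar and the same span of log2 units in each panel. Cd2 spans the widest range of group means, 4.05 on the log2 scale, with IkL/L DMSO highest and WT GSI lowest, and Cd247 lies higher on all 4 GSI arrays than on all 4 DMSO arrays.

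Among the receptor chains, Cd247, which encodes the CD3 zeta chain, was the 1 member that rose. Its level was 10.61 and 10.51 with DMSO and 11.58 and 11.10 with GSI in WT, and 10.30 and 10.39 with DMSO against 11.19 and 11.11 with GSI in IkL/L. All 4 GSI arrays lay above all 4 DMSO arrays, and within each treatment WT and IkL/L differed by less than the GSI effect. The rise was 1.73-fold on average (log2 0.79 ± 0.13, adjusted p = 0.0029), 0.78 ± 0.18 in WT (adjusted p = 0.041) and 0.81 ± 0.18 in IkL/L (adjusted p = 0.017). The averaged call was kept in all 17 alternative fits.

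Cd3d encodes the CD3 delta chain, and its level was 12.12 and 11.97 with DMSO and 12.05 and 11.62 with GSI in WT, and 12.18 and 12.22 with DMSO against 11.88 and 12.21 with GSI in IkL/L. The GSI and DMSO arrays overlapped in both genotypes, and the averaged difference was -0.18 ± 0.12 (95% interval -0.46 to 0.09, adjusted p = 0.35). Cd3g, the CD3 gamma chain, was at 12.78 and 12.60 with DMSO and 12.64 and 12.21 with GSI in WT, and 12.74 and 12.63 with DMSO against 12.90 and 12.91 with GSI in IkL/L. Both IkL/L GSI arrays were above every other array, while WT GSI overlapped WT DMSO. Its averaged difference was -0.02 ± 0.10 (95% interval -0.26 to 0.21, adjusted p = 0.91). Cd3g passed as lower in WT with the stromal covariate (-0.32, adjusted p = 0.049) and as higher in IkL/L with the GAPDH covariate (0.57, adjusted p = 0.015).

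Cd3e, whose product pairs with both CD3 delta and CD3 gamma, had levels of 9.18 and 9.58 with DMSO and 9.51 and 9.86 with GSI in WT, and 9.41 and 9.75 with DMSO against 10.16 and 10.06 with GSI in IkL/L. The IkL/L GSI arrays were the highest of the 8, and the WT groups overlapped. The averaged difference of 0.42 ± 0.15 did not pass (95% interval 0.06 to 0.77, adjusted p = 0.092), and passed with the stromal covariate (adjusted p = 0.0086) and the replicate block (0.041). In IkL/L it passed with the stromal covariate (adjusted p = 0.018). Cd3g, Cd3d and Cd3e are neighbours in this order on chromosome 9 in RefSeq. The next gene after Cd3e, Mpzl2, an adhesion protein of the thymic epithelium, fell by 0.79 ± 0.13 (adjusted p = 0.0038), while none of the 3 CD3 genes beside it passed.

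Zap70, the kinase that docks on phosphorylated CD3 chains, fell in both genotypes. Its level was 9.48 and 9.21 with DMSO and 8.68 and 8.74 with GSI in WT, and 10.01 and 9.93 with DMSO against 9.02 and 8.91 with GSI in IkL/L. The 4 groups did not overlap and ran in the order IkL/L DMSO, WT DMSO, IkL/L GSI and WT GSI. The averaged fall was 1.77-fold (log2 -0.82 ± 0.12, adjusted p = 0.0023) and was kept in all 17 alternative fits. In IkL/L the fall was 2.01-fold (-1.01 ± 0.17, adjusted p = 0.0063), and in WT the difference of -0.63 ± 0.17 did not pass (adjusted p = 0.074), though it passed in 5 alternatives: the replicate block (0.0496), the stromal covariate (0.022), centring (0.0498), genes above the median level (0.040) and no trend (0.036). The test of the difference between these responses gave no call for Zap70 (95% interval -0.94 to 0.19).

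Fyn, a Src family kinase that phosphorylates the CD3 chains, was at 8.97 and 9.04 with DMSO and 9.08 and 8.94 with GSI in WT, and 9.54 and 9.89 with DMSO against 9.30 and 9.22 with GSI in IkL/L. All 4 IkL/L arrays lay above all 4 WT arrays, and the WT groups overlapped. The averaged GSI difference of -0.22 ± 0.13 did not pass (adjusted p = 0.28). In IkL/L both GSI arrays lay below both DMSO arrays, and the difference of -0.45 ± 0.18 did not pass (adjusted p = 0.14).

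Lat, the membrane scaffold that ZAP70 phosphorylates, was at 12.04 and 11.82 with DMSO and 12.37 and 12.05 with GSI in WT, and 11.92 and 12.01 with DMSO against 12.27 and 12.24 with GSI in IkL/L. Every GSI array was above every DMSO array, though WT GSI replicate 2 and WT DMSO replicate 1 lay next to each other. The averaged difference of 0.29 ± 0.10 did not pass (95% interval 0.06 to 0.51, adjusted p = 0.070). It passed with the replicate block (adjusted p = 0.046), the GAPDH covariate (0.0345), the stromal covariate (0.0457), among genes above the median level (0.0447) and without WT GSI replicate 2 (0.022). Lcp2, the partner adaptor of Lat, had an averaged difference of 0.18 ± 0.19 (adjusted p = 0.58) at its brightest probe set, with levels between 10.43 and 11.30 and overlapping WT groups. In IkL/L its difference of 0.50 ± 0.26 (adjusted p = 0.26) passed with only the compared arrays (0.030) and without both WT arrays numbered 1 (0.029).

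Cd2 fell the most of the 10 members. Its level was 7.56 and 6.45 with DMSO and 4.65 and 4.80 with GSI in WT, and 9.01 and 8.54 with DMSO against 6.95 and 5.15 with GSI in IkL/L. Within each genotype both GSI arrays were below both DMSO arrays, and both WT GSI arrays and IkL/L GSI replicate 2 were below their array medians. The averaged fall was 5.67-fold (log2 -2.50 ± 0.40, adjusted p = 0.0029) and was kept in all 17 alternative fits. The fall was 6.62-fold in IkL/L (-2.73 ± 0.56, adjusted p = 0.013), with log2 values of -3.63 without IkL/L GSI replicate 1 and -1.83 without replicate 2, the lowest and highest of its alternatives. The WT difference of -2.28 ± 0.56 missed the threshold (adjusted p = 0.052). It passed with the replicate block (adjusted p = 0.0073), with the stromal covariate (0.0068), after centring (0.042), among genes above the median level (0.037) and without either IkL/L GSI array (0.029 each). The deposited values carry no detection call, so the Cd2 folds are differences of these values and rest on dim GSI arrays.

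Cd5 was at 8.09 and 7.53 with DMSO and 7.17 and 7.04 with GSI in WT, and 9.21 and 9.20 with DMSO against 8.25 and 7.002 with GSI in IkL/L. IkL/L DMSO was above every other group, WT DMSO was above WT GSI, and the IkL/L GSI arrays spanned both WT groups. The averaged fall was 2.21-fold (log2 -1.14 ± 0.27, adjusted p = 0.016). The fall in IkL/L was 2.996-fold (-1.58 ± 0.38, adjusted p = 0.025), with log2 values of -2.21 without IkL/L GSI replicate 1 and -0.96 without replicate 2, while the WT difference of -0.71 ± 0.38 did not pass (adjusted p = 0.35). The averaged call was lost without WT DMSO replicate 1, without either IkL/L DMSO array, without both WT arrays numbered 1, and with a GAPDH covariate, with log2 values from -1.46 to -0.83 and adjusted p from 0.0021 to 0.148 over the 17 alternatives.

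On IkL/L GSI replicate 1, where Cd2 and Cd5 were higher than on replicate 2, some markers of later alpha-beta thymocytes were higher too. Cd8a was at 8.43 on replicate 1 and 6.31 on replicate 2, and Cd8b1 at 7.62 and 5.91. On the other 6 arrays Cd8a lay between 6.02 and 6.55 and Cd8b1 between 5.81 and 6.49. Cd4 was high on both IkL/L GSI arrays, at 7.88 and 7.36, against 5.91 to 6.57 elsewhere. Ccr7 was at 5.72 on replicate 1 and 4.401 on replicate 2, and S1pr1 went the other way, at 5.02 and 6.18. The mean over these 5 measured genes of 8 listed was 6.93 on replicate 1, 6.03 on replicate 2, and between 5.70 and 6.04 on the others. Their part in the Cd2 and Cd5 values of that array was not tested.

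Within the genotypes, 4 of 10 members passed in IkL/L, the same 4 as in the average, against a background of 16.8% (7.7% higher and 9.09% lower). Among the genes above the median level, where all the members lay, 34.6% passed in IkL/L and 16.2% in WT. In WT, Cd247 alone passed, against a background of 6.47% (2.31% higher and 4.16% lower). An unadjusted p below 0.05 was found in WT for 3 members and for 3839 of 18193 genes. In IkL/L it was found for 6 members and for 5420 genes. The median over all genes was 0.035 in WT and -0.05 in IkL/L. The WT call of Cd247 was lost in 7 of 8 fits that leave out 1 array and was kept without WT GSI replicate 2, with log2 values from 0.54 to 1.02 over its alternatives. All 4 IkL/L calls were lost without IkL/L DMSO replicate 1, IkL/L DMSO replicate 2 or IkL/L GSI replicate 2, and that of Cd247 also without IkL/L GSI replicate 1. The IkL/L calls of Cd5 and Cd2 were lost with the GAPDH covariate. A leave-one-out fit leaves 1 group with a single array, which is then assumed to vary like the other groups. Leaving out an IkL/L array also lowered the share of all genes called in IkL/L. The calls lost in those fits thus describe the fit as well as the members.

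The response to GSI was compared between the genotypes by the difference of the 2 responses. None of the 10 members passed in limma (background 0.044%). An unadjusted p below 0.05 was found for 1089 of 18193 genes and for 1 member, Cd3g. Its response in IkL/L exceeded that in WT by 0.49 ± 0.20 (95% interval 0.02 to 0.96, adjusted p = 0.82). For Cd2 the difference was -0.45 ± 0.79 (95% interval -2.27 to 1.37) and for Cd5 -0.88 ± 0.54 (95% interval -2.11 to 0.36).

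The genotypes were compared under each treatment for a difference at baseline. Under DMSO none of the 10 members passed in limma (background 1.74%, all-gene median 0.03). An unadjusted p below 0.05 was found for 1854 of 18193 genes and for 4 members, all 4 higher in IkL/L. These were Fyn (0.71 ± 0.18, adjusted p = 0.14), Cd5 (1.40 ± 0.38, adjusted p = 0.16), Zap70 (0.63 ± 0.17, adjusted p = 0.17) and Cd2 (1.77 ± 0.56, adjusted p = 0.25). For each of these 4 genes both IkL/L DMSO arrays lay above both WT DMSO arrays, which largely follows from picking them by this p-value. The share of all genes with such a separation was not computed. With the replicate number as a block Cd5 and Cd2 passed, with the stromal mean as a covariate Fyn and Cd5, and with the GAPDH difference Zap70 and Fyn. For Cd3d, Cd3e, Cd3g, Cd247 and Lat the difference under DMSO lay between -0.22 (Cd247) and 0.20 (Cd3e), with overlapping arrays for Cd3e, Cd3g and Lat. Lcp2 had a difference of -0.54 ± 0.26 (adjusted p = 0.58), and both IkL/L DMSO arrays lay below both WT DMSO arrays.

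Under GSI none of the 10 members passed either (background 1.46%, all-gene median -0.04). An unadjusted p below 0.05 was found for 1946 of 18193 genes and for 2 members. Cd3g was higher in IkL/L by 0.48 ± 0.14 (adjusted p = 0.23) and Cd2 by 1.33 ± 0.56 (adjusted p = 0.45). Cd3g passed without WT GSI replicate 1 (adjusted p = 0.042), without both WT arrays numbered 1 (0.039), and with the GAPDH (0.0063) or stromal (0.037) covariate. Cd5 was 0.52 higher in IkL/L GSI than in WT GSI and -0.10 without IkL/L GSI replicate 1, so its sign rested on that array.

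**Figure D2:**
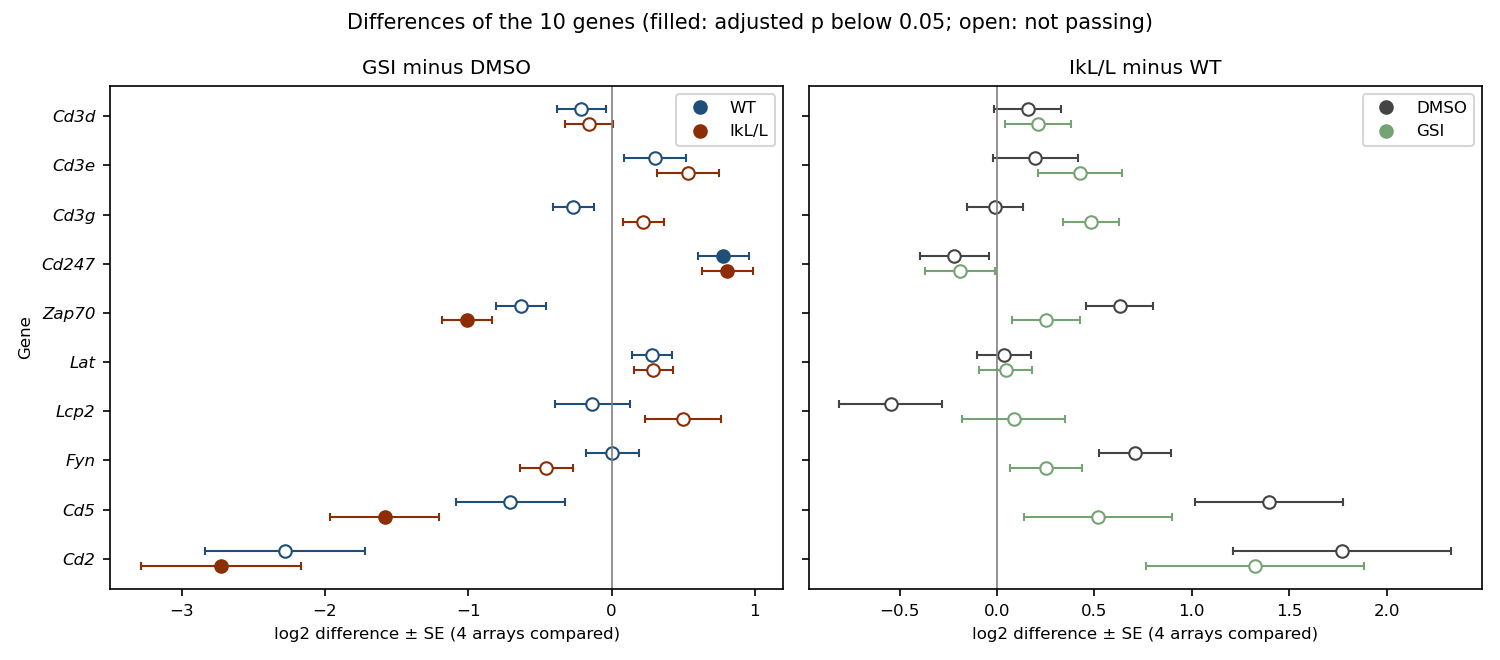
Log2 differences of the 10 members with the moderated SE as bars, GSI minus DMSO in WT and in IkL/L on the left and IkL/L minus WT for each treatment on the right, with filled points for adjusted p below 0.05. Cd2, Cd5, Zap70 and Cd247 are filled for GSI in IkL/L and Cd247 for GSI in WT, and no point is filled on the right.

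Where a gene had several probe sets, they did not always give the same answer. In the fit of all probe sets the background was 19.2% for the average, 13% in IkL/L and 3.57% in WT. Of the 17 member probe sets, 3 rose and 4 fell in the average, as in IkL/L, and none passed in WT in limma. Those that rose were 2 of Cd247 and 1 of Lcp2, and those that fell were 2 of Zap70 and the single ones of Cd5 and Cd2.

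Of the 4 Cd247 probe sets, the brightest and 1420716_at passed. The second was at 6.78 and 6.79 with DMSO and 8.02 and 8.16 with GSI in WT, and 5.81 and 6.66 with DMSO against 7.15 and 7.81 with GSI in IkL/L. The 4 groups did not overlap on it, and the averaged rise was 1.27 ± 0.23 (adjusted p = 0.0079). The other Cd247 probe sets, 1452539_a_at (0.38 ± 0.14, adjusted p = 0.11) and 1426079_at (0.37 ± 0.18, adjusted p = 0.20), did not pass. The first of these lay near the array medians, at 5.28 to 6.12, and 1426079_at lay below them on every array, at 4.22 to 5.17.

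The brightest Zap70 probe set is of a kind whose probes may match other sequences (name ending in _x_at), so 1422701_at was set beside it. That probe set read 9.16 and 8.20 with DMSO and 8.04 and 6.81 with GSI in WT, and 9.74 and 9.57 with DMSO against 8.05 and 7.95 with GSI in IkL/L. GSI arrays were below DMSO arrays in both genotypes, with an averaged difference of -1.46 ± 0.31 (adjusted p = 0.015). The third Zap70 probe set, 1439749_at, stayed between 7.68 and 7.93 on all arrays, with a difference of 0.05 ± 0.12 (adjusted p = 0.84).

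Lcp2 differed between its probe sets. The dimmer one, 1418642_at, was at 8.09 and 7.77 with DMSO and 8.85 and 8.24 with GSI in WT, and 7.89 and 7.72 with DMSO against 8.64 and 8.99 with GSI in IkL/L. Every GSI array was above every DMSO array, and the averaged rise was 0.81 ± 0.19 (adjusted p = 0.021). At the brightest probe set the WT GSI arrays, at 11.30 and 10.45, lay on either side of the WT DMSO arrays, at 10.81 and 11.20. The dimmer Fyn probe set, 1448765_at, gave -0.39 ± 0.13 (adjusted p = 0.089), and Fyn passed at neither.

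**Figure D3:**
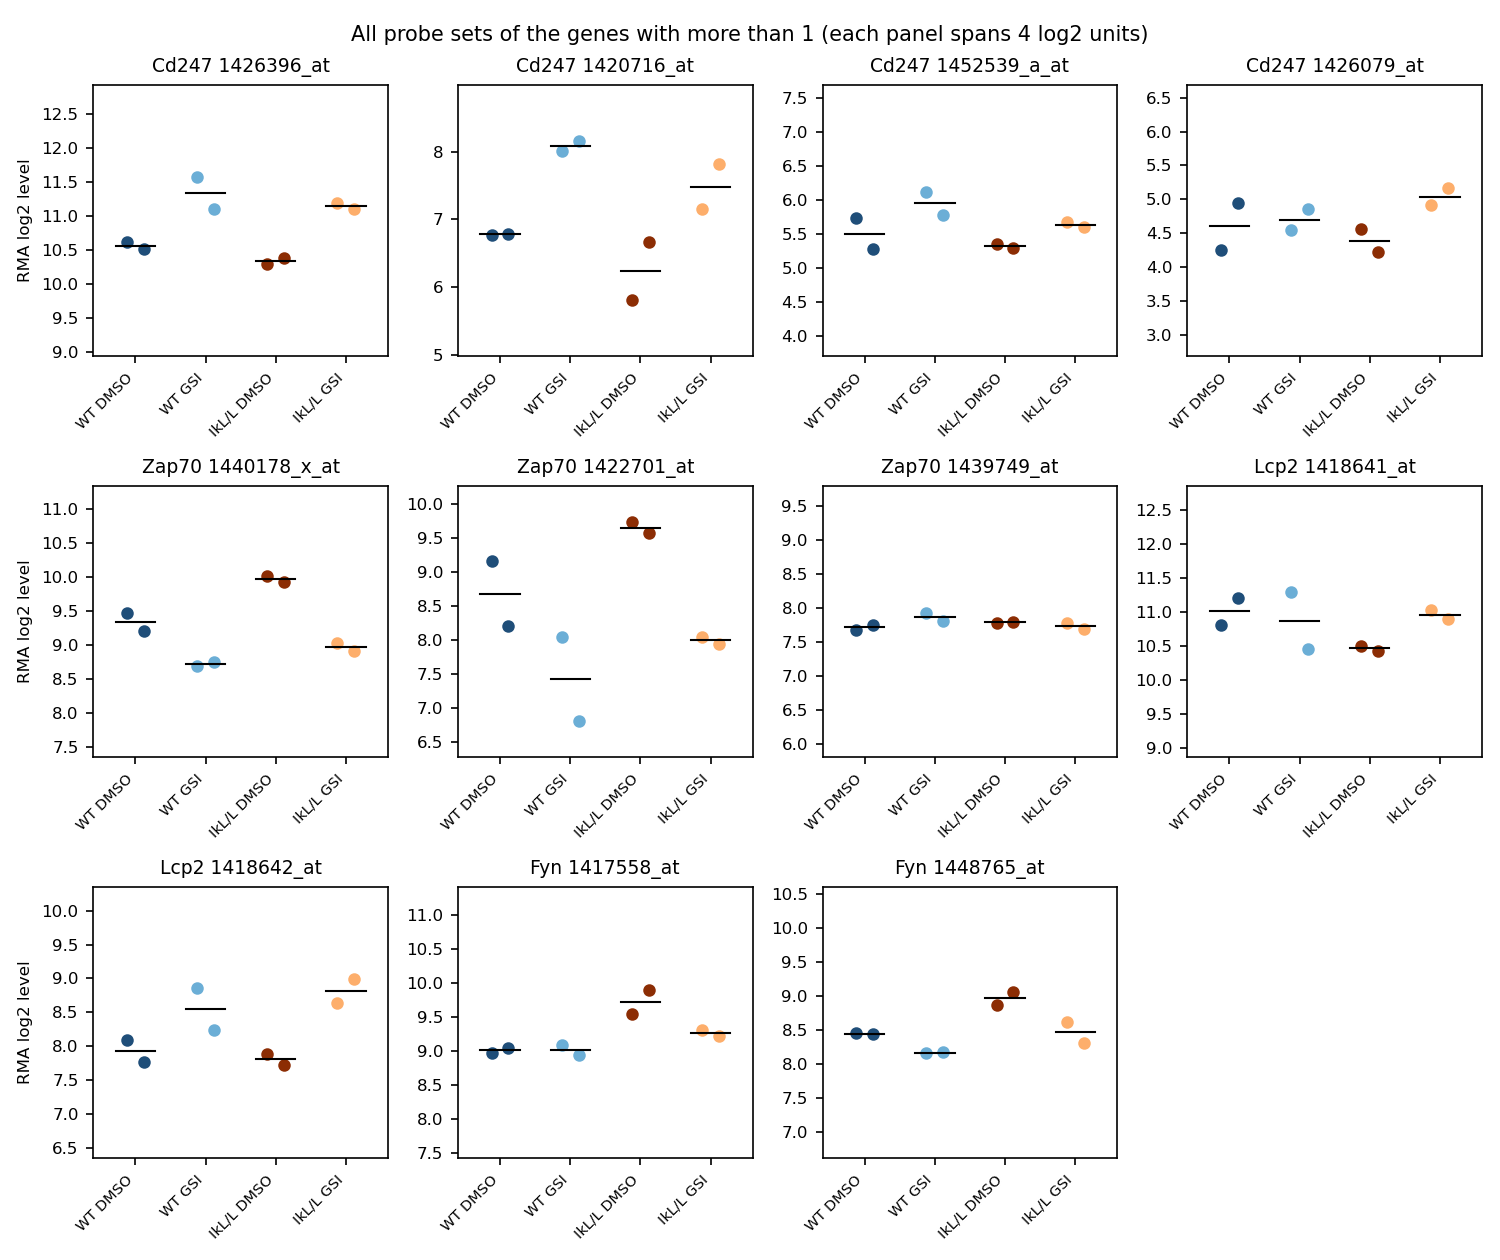
Log2 level on each array of every probe set of Cd247, Zap70, Lcp2 and Fyn, the members with more than 1, as points by group with the group mean as a bar. GSI arrays lie above DMSO arrays on 1426396_at and 1420716_at of Cd247 and on 1418642_at of Lcp2, and 1439749_at of Zap70 is flat.

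The rest of the pathway was followed in 8 lists, whose members were counted in the averaged comparison (background 10.8% higher, 12.5% lower). In the fit of genes above the median level alone, 44.8% of those genes were called in either direction. There 6 of 19 adaptors and exchange factors rose and none fell, and 7 of 17 downstream effectors rose and 1 fell. Counted in either direction, both lists lay near or below that share. Its split into higher and lower was not computed, so the rises alone have no share beside them in that fit. The share over all genes also moved when single arrays were left out, so counts from such fits describe the fit as well as the list. Ptcra, the invariant chain of the pre-TCR and a Notch target in DN3 cells, fell by 1.99 ± 0.11 (adjusted p = 0.00012), by 1.64 in WT and by 2.33 in IkL/L. With GSI its IkL/L level was below that of WT, by -1.06 ± 0.15 (adjusted p = 0.015), a call kept in 13 of 18 alternatives and lost without any 1 of the 4 IkL/L arrays and in the fit of the compared arrays alone. Tcra, the other measured receptor chain, did not pass (0.14 ± 0.38).

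Of 9 other proximal kinases and phosphatases, 2 rose and 7 did not pass (median 0.15). The 2 were Tec (1.39 ± 0.17), a kinase that acts on phospholipase C gamma, and Syk (0.84 ± 0.16), the kinase of the ZAP70 family that also serves the pre-TCR. Syk thus rose in the comparison in which Zap70 fell. With the GAPDH covariate the Syk difference was 0.76 (adjusted p = 0.060), and its call was lost in that alternative alone.

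Of 19 other adaptors and exchange factors, 5 rose and none of them fell (median 0.36), and the count was between 3 and 8 when single arrays were left out. They were Vav3 (0.98 ± 0.17), a guanine nucleotide exchange factor, Themis (0.69 ± 0.10), a thymocyte adaptor of receptor signalling, the transmembrane adaptors Sit1 (0.66 ± 0.20) and Pag1 (0.55 ± 0.11), and Trat1. Of 17 downstream effectors, 6 rose and 1 fell (median 0.37), with 3 to 8 rising when single arrays were left out. The 4 largest rises were those of the transcription factor genes Nfatc1 (0.93 ± 0.15) and Nfatc2 (0.81 ± 0.16), the phospholipase gene Plcg1 (0.86 ± 0.12) and the calcineurin subunit gene Ppp3ca (0.69 ± 0.15). The gene that fell was Nfatc3 (-0.34 ± 0.10, adjusted p = 0.041), and the calcium channel genes Stim1 and Orai1 did not pass. The calls of Themis, Pag1, Nfatc1, Plcg1 and Nfatc2 were lost when a gene was represented by the mean of its probe sets, with values of 0.16 for Nfatc1 and 0.12 for Nfatc2. Those of Pag1 and Nfatc2 were also lost with the GAPDH covariate, and that of Sit1 in 5 of 8 fits without 1 array.

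Of 14 inhibitors of receptor signalling, 1 rose and 2 fell (median 0.06). Sla2, which promotes the removal of receptor chains, rose (1.27 ± 0.26), while Cd6 (-1.62 ± 0.20), a scavenger receptor related to CD5, and Sla (-0.91 ± 0.24) fell. The call of Sla was kept in 9 of 17 alternatives, with values from -1.18 to -0.33, and was lost with the GAPDH covariate and with the mean of probe sets. Cd6 is the neighbour of Cd5 on chromosome 19 in RefSeq, and both fell. Vps37c, on the other side of Cd5, rose by 0.64 ± 0.15 (adjusted p = 0.016). Igsf3, beside Cd2 on chromosome 3, fell by 0.75 ± 0.15 (adjusted p = 0.0092).

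Of 8 coreceptors and partners of CD2, 2 rose (median 0.26): Pstpip1 (0.77 ± 0.21), an adaptor that binds the CD2 tail, and the coreceptor Cd4 (0.77 ± 0.18). That count was between 0 and 2 when single arrays were left out, and the Cd4 call was also lost with the GAPDH covariate. Of 8 genes induced at beta-selection, 2 fell and 6 did not pass (median -0.22), namely Ikzf3 (-1.37 ± 0.23), an Ikaros family factor, and Id3 (-0.63 ± 0.16), an inhibitor of E proteins. For Id3 the difference was 0.08 in WT (adjusted p = 0.89) and -1.34 in IkL/L (adjusted p = 0.0062), and its averaged call was lost in 7 of 17 alternatives, GAPDH among them. The count was between 1 and 4 when single arrays were left out. Of the 9 measured DN3 markers, 2 fell, Ptcra and Il2ra (-2.28 ± 0.11), and Il2ra encodes CD25, on which the cells were sorted. In IkL/L alone, Rag1 (0.88 ± 0.20, adjusted p = 0.020) and Rag2 (0.73 ± 0.19, adjusted p = 0.036) were called higher. Their WT differences of -0.23 and -0.06 did not pass. In the genotype comparisons Ptcra under GSI was the 1 gene called on these lists.

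**Figure D4:**
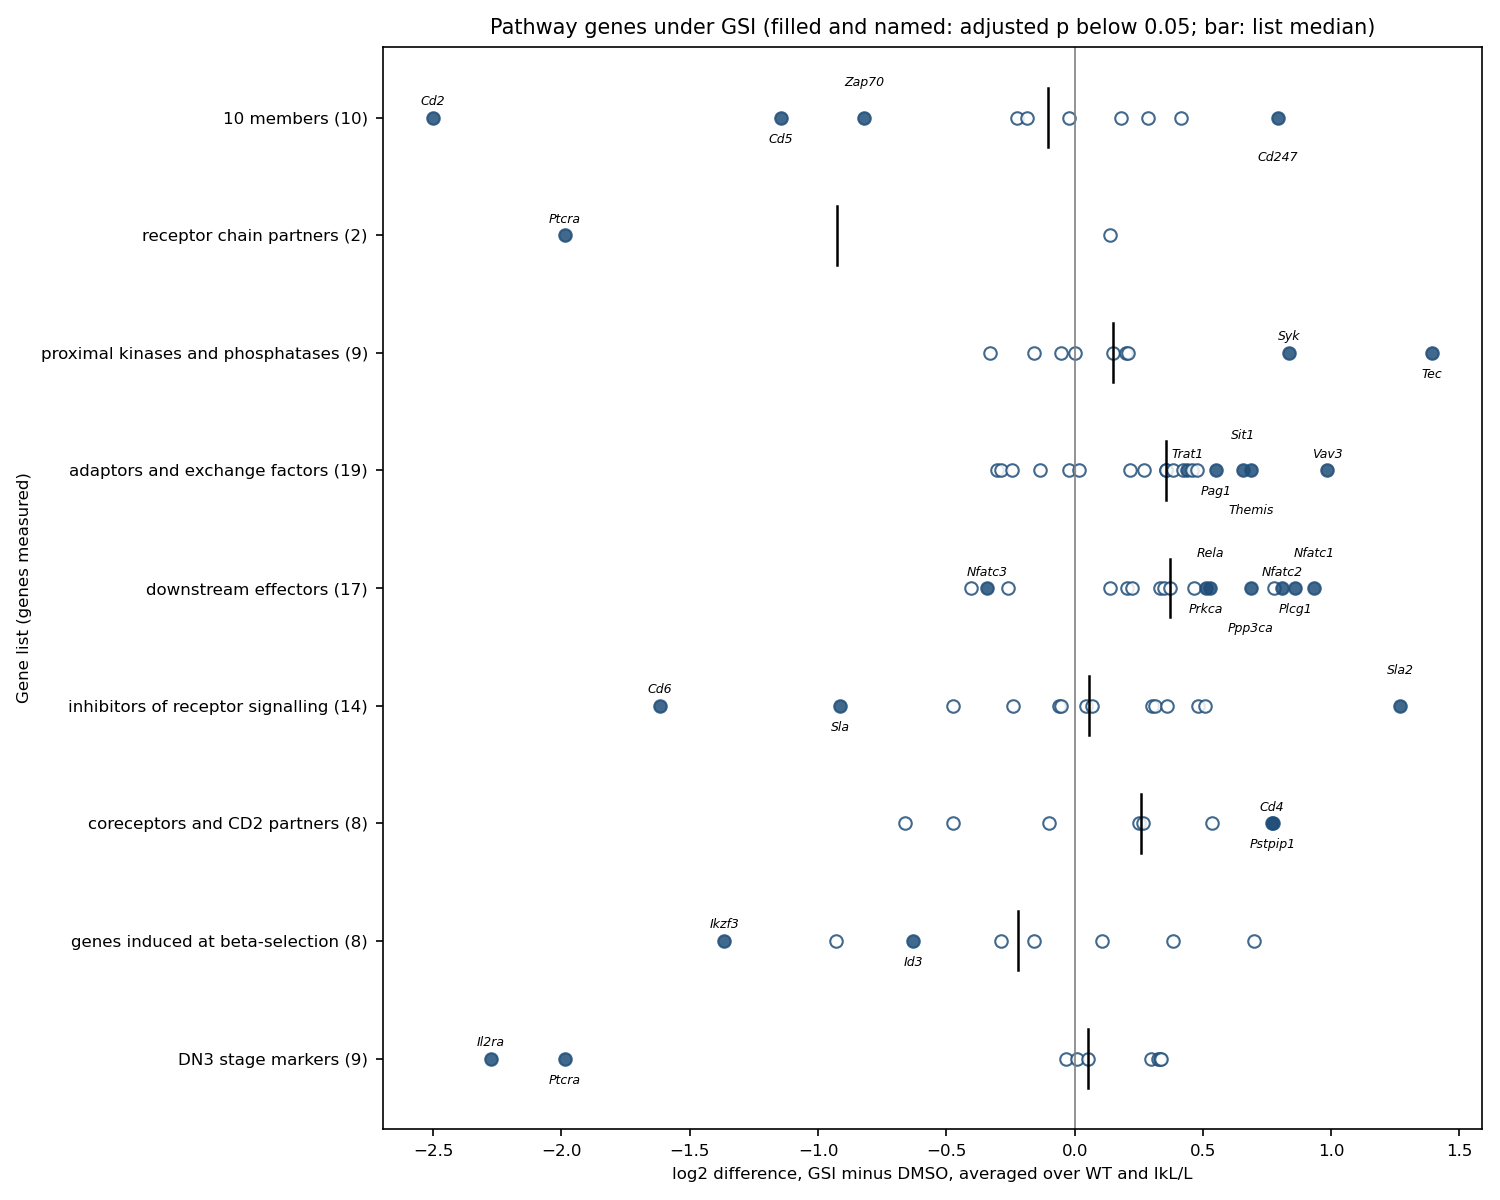
Averaged log2 difference of GSI minus DMSO for each measured gene of the 8 pathway lists, below those of the 10 members, with filled points for adjusted p below 0.05 and a bar at each list median. The medians of the adaptors and the downstream effectors are 0.36 and 0.37, that of the genes induced at beta-selection is -0.22, and Il2ra and Ptcra are the lowest points of the 8 pathway lists.

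The 3 members with the widest range of group means, Cd2 (4.05), Cd5 (2.10) and Zap70 (1.26), were set against all other genes by the root mean square distance of their profiles over the 8 arrays, each centred on its own mean. The profiles nearest to Cd2 were those of H2-Q2 (distance 0.53), Arsi (0.57) and Ctage5 (0.65). Nearest to Cd5 were Tnk2 (0.27), Mfhas1 (0.29) and Ccnd3 (0.29), and nearest to Zap70 were Dach2 (0.11), Ttc32 (0.12) and Pold1 (0.12). All 9 genes had their highest group mean in IkL/L DMSO, as had the 3 members, which largely follows from choosing them by likeness. The distances are descriptions over arrays that share their groups.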

How the data were processed

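RNA was labelled in 2 cycles and hybridised to Affymetrix mouse arrays, per the labels' protocols. The deposited log2 values were made by the authors with RMA, per the submitters' processing notes; its version, and which arrays were summarised together, are not given in the sources used here. They were used as deposited. Of 45101 probe sets, 34945 name a single gene, which gave 18193 genes, each by its probe set with the highest mean over the arrays, and dim genes were kept.

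The test was limma 3.58.1, run in R 4.3.3 (group means, moderated variance with a trend, two-sided) on all 8 arrays, with 4 residual and 4.11 prior degrees of freedom and Benjamini-Hochberg adjustment over all genes. The number of arrays, 2 per group, limits the precision. Groups came from the sample titles, and 6 comparisons were made. The members and lists were chosen with earlier results of these data known; 85 of 107 pathway genes and 68 of 83 marker genes were measured, and the others were not analysed here. Besides the members, the text names Ikzf1, Ptcra and Dtx1, up to 4 called genes of each pathway list by size, and the 3 profiles nearest to the 3 members of widest range. Trat1, the chromosome neighbours and the single marker genes were named after their values were seen. Alternatives were centring on array medians, the mean of a gene's probe sets, every probe set, genes above the median level, no trend, a replicate block, covariates, only the arrays compared, and leaving out arrays. The fit was tested on simulated data. pandas 2.3.3, numpy 2.4.6 and matplotlib 3.10.9 served for tables and plots.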

Additional observations from a re-analysis of the deposited data

How the results depend on the processing

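Averaged over the genotypes, the number of members called stayed within 1.5 times the 4 reported in every alternative run. The share of all genes called, 23.3% as reported, moved between these fits. It was 20.2% with the GAPDH covariate, and 44.8% among genes above the median level. With 3 members higher and 3 lower, it was 27.8% with the replicate block and 32.9% with the stromal covariate. In WT, where 1 member and 6.47% of all genes were called, the share of all genes moved between settings as well. The number of members was 3 after centring each array (8.05% of all genes), among genes above the median level (16.2% of those) and with the replicate block (10.8%). It was 2 without a trend (7.29%) and 4 with the stromal covariate (16.9%). It was 0 with every probe set as a feature (3.57% of probe sets) and with only the arrays compared (0.0055%). The Cd247 call was also lost without both WT arrays numbered 1. Leaving out single arrays changed the number of members called in both genotypes, and the share of all genes called changed too. Between the genotypes under DMSO, 2 members were called with the replicate block (2.98% of all genes), the GAPDH covariate (5.84%) or the stromal covariate (4.45%), and none in the other fits. Under GSI, 1 was called with the GAPDH covariate (4.36% of all genes) and with the stromal covariate (4.44%), and the number changed when arrays were left out. The arrays' numbers are not shared by source in the labels, and deviations of same-numbered arrays correlated at 0.71 between the WT groups, at -0.01 between the IkL/L groups, at 0.58 between the DMSO groups, at 0.02 between the GSI groups and at 0.56 between WT GSI and IkL/L DMSO, so deviations were shared by number in 3 groups and not in IkL/L GSI.

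There were 51 changes of sign, none of a value called in either fit, and 33 of them came from leaving out an array; the cause was not tested. With the GAPDH covariate the GSI difference in WT became 0.025 for Cd3d, -0.071 for Cd3e, 0.013 for Cd3g, 0.20 for Lcp2 and -0.069 for Fyn, that of Cd3d in IkL/L 0.13, the averages of Cd3d and Cd3g 0.079 and 0.29, and Cd3g between the genotypes under DMSO 0.091. With the mean of probe sets, Lcp2 in WT became 0.24 and Fyn -0.13. With centring, Fyn in WT became -0.044 and the difference of responses of Lat -0.0009. Without both WT arrays numbered 1, Fyn in WT became -0.10, the average of Lcp2 -0.13, the genotype difference under DMSO -0.0022 for Cd3e and 0.080 for Cd3g, and that of Cd247 under GSI 0.051. Over the fits without 1 array, the GSI difference in WT ran from -0.42 to 0.0017 for Cd3d, from -0.55 to 0.29 for Lcp2 and from -0.063 to 0.072 for Fyn. That of Cd3d in IkL/L ran from -0.33 to 0.011, and the averages from -0.13 to 0.083 for Cd3g and from -0.028 to 0.39 for Lcp2. The genotype difference under DMSO ran from -0.0022 to 0.40 for Cd3e, from -0.097 to 0.080 for Cd3g and from -0.074 to 0.15 for Lat. Under GSI it ran from -0.0022 to 0.42 for Cd3d, from -0.43 to 0.051 for Cd247, from -0.12 to 0.20 for Lat, from -0.34 to 0.51 for Lcp2 and from -0.10 to 1.14 for Cd5. The difference of the responses ran from -0.16 to 0.27 for Cd3d, from -0.21 to 0.27 for Cd247, from -0.15 to 0.17 for Lat and from -1.35 to 0.45 for Cd2. Levels near or below the array median are the ones that signal over background limits. Such were Cd2 on both WT GSI arrays and IkL/L GSI replicate 2, and the dimmest Cd247 probe sets.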
